A study of Mus musculus with 26 samples.

Results

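Cytosolic ribosomal proteins are the protein subunits of the ribosomes that translate nuclear mRNAs, and their mRNAs were followed here in mouse liver during leptin infusion. The members were all array probes whose annotated symbol starts with Rpl or Rps followed by a digit, p or a, without the Rps6k kinases and Rps19bp1, for genes detected on at least 4 arrays. The rule found 65 genes among the 16593 genes with a symbol on the array, 40 of the large and 25 of the small subunit. Of these, 58 were detected on 4 or more arrays, 34 of the large and 24 of the small subunit, and 48 were detected on all 26 arrays. The 7 genes left out were Rpl14, Rpl17, Rpl39l, Rpl3l, Rpl6, Rplp2 and Rps23.

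Liver RNA of each mouse was hybridised to an Illumina MouseRef-8 v2.0 BeadChip, a 1-colour array. LEP-SQ, LEP-ICV, LEP-ICV*, VEH-SQ and VEH-ICV were female ob/ob mice on a C57BL6 background, which lack functional leptin, and each group had 4 mice. They were 15 weeks old when infusion by osmotic pump began, and it lasted 12 days. LEP-SQ mice received leptin under the skin at 10 µg/d, and VEH-SQ mice saline by the same route. LEP-ICV mice received leptin into the lateral ventricle of the brain at 1.5 µg/d, and VEH-ICV mice artificial cerebrospinal fluid by that route. LEP-ICV* mice were assigned to brain leptin at 1.5 µg/d but lost little weight. This group was thus separated from LEP-ICV by an outcome, and the placement of its cannulas is in doubt. B6 were 6 C57BL6 mice labelled as baseline, with no infusion named, of an age that the sources used here do not state. Whole liver was used, so a change in cell numbers and a change in RNA per cell cannot be told apart.

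The ribosome is built from a large and a small subunit, each a ribosomal RNA scaffold decorated with proteins that are mostly needed in equal numbers. Their mRNAs are abundant, and most begin with a C followed by a run of pyrimidines, the terminal oligopyrimidine (TOP) tract, through which the mTOR pathway controls their translation and, with the protein Larp1, their stability. In liver, feeding, insulin and amino acids are known to act on the production of ribosomes. Ribosomal protein genes also have many processed pseudogenes, and whether probes also capture transcripts of such copies was not tested.

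The pyrimidine run is printed for members on which the results below turn, because most members have one and the rule did not use it. Sequences are from RefSeq (GRCm38.p6), which matched 50 of the 58 members, and are given 5′ to 3′ on the strand of the gene, with the longest run of C and T near the start site in capitals.
Rpl27a (chr7:109519186-109519215, + strand): gtgagCTCCTCCCTTTTCCCTTTCTgccac
Rpl13a (chr7:45128722-45128751, − strand): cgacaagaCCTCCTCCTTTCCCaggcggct
Rps12 (chr10:23787182-23787211, − strand): ccaccgccggCCTTTTCCCCTgccgccgcc
Rps6 (chr4:86857349-86857378, − strand): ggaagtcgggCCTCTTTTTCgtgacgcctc
Rps25 (chr9:44407684-44407713, + strand): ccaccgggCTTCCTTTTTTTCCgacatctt
Rpl9 (chr5:65391383-65391412, − strand): acgaaagacgTTCTCTCTTTgccccatcta
Rps9 (chr7:3704024-3704053, + strand): caaccgccttgTCTCTCTTTgtctcgggcc
Rps3a1 (chr3:86142623-86142652, − strand): acgtagacggcgCTCCCCgcccggctcgcg
Rps4x (chrX:102189342-102189371, − strand): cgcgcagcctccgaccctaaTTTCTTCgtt
The longest run was 20 bases in Rpl27a and 14 in Rpl13a, and it was 6 bases in Rps3a1 and 7 in Rps4x. Counted from the annotated start, the run began at -4 in Rpl27a, 3 in Rpl13a, 9 in Rps12 and -1 in Rps6. It began at -22 in Rps25, 30 in Rpl9, -6 in Rps9, 29 in Rps3a1 and 41 in Rps4x. The capitals therefore mark the longest run near a start, and whether it is the TOP tract of the mRNA was not tested. A run of 8 or more C or T bases within the 30 bases before to 50 bases after an annotated start was present in 38 of 50 members (76.0%), against 8697 of 26975 other genes (32.2%). Read on the opposite strand, the same motif was present in 8 of 50 members (16%), against 35.3% of other genes. A match is a description of these letters, and the windows hold 1 reference start site or a few per gene.

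Expression is given as log2 normalized intensity, and a log2 change of 1 is a 2-fold change. A gene was called where limma's moderated test, adjusted by Benjamini-Hochberg over the 7953 genes tested, gave an adjusted p under 0.05. The arrays fell into 2 background classes by the intensity of their undetected probes, 152.7 to 186.1 on 14 high arrays and 99.3 to 113.8 on 12 low arrays. The high arrays detected 8092 to 11117 probes and the low arrays 6786 to 9705. All LEP-SQ and B6 arrays were high and all VEH-SQ and VEH-ICV arrays low, so the contrast of LEP-SQ with VEH-SQ and that of ob/ob with B6 cannot be told apart from the class. LEP-ICV and LEP-ICV* each had 2 arrays of each class, and LEP-SQ and B6 share 1 class. Each comparison is therefore given from a model of the 6 groups and, beside it, from a model that adds the class. Of 8 hepatocyte genes, 6 (Alb, Ttr, Apoa1, Apoc3, Serpina1a and Cps1) were detected on 26 arrays, Fgb on 1 and Tat on 0, and the adipocyte genes Adipoq and Lep were detected on 0.

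The mean level of the 58 members, each as its deviation from its own mean over 26 arrays, was highest on a LEP-ICV array and lowest on a VEH-ICV array. On the log2 scale it was -0.24, 0.81, 0.64 and 0.17 in the LEP-ICV mice LEP_ICV_1003, LEP_ICV_1014, LEP_ICV_1017 and LEP_ICV_1019, and averaged 0.34 ± 0.48 (SD, n = 4). It averaged -0.18 ± 0.25 in LEP-ICV* and -0.52 ± 0.24 in VEH-ICV (SD, n = 4 each). The highest VEH-ICV array, at -0.23, lay just above LEP_ICV_1003, so these groups overlapped by this pair of arrays. LEP-SQ arrays lay between 0.02 and 0.35 and VEH-SQ arrays between -0.37 and -0.10, without overlap. B6 arrays lay between 0.18 and 0.42. Within LEP-ICV*, the 2 high arrays lay at -0.03 and 0.08 and the 2 low arrays at -0.29 and -0.46. Group means for the large subunit were 0.35 in LEP-ICV, -0.45 in VEH-ICV and 0.24 in B6, and for the small subunit 0.33 in LEP-ICV, -0.62 in VEH-ICV and 0.38 in B6. VEH-ICV was lowest for both subunits, and the highest group was LEP-ICV for the large and B6 for the small subunit.

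**Figure D1:**
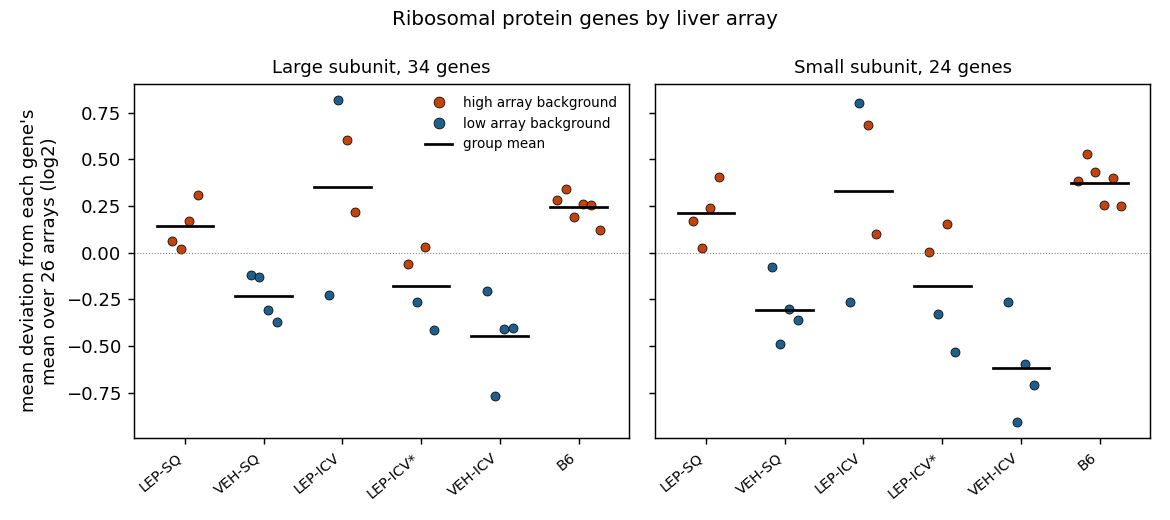
Mean deviation of the 34 large and 24 small subunit genes from each gene's mean over 26 arrays (log2, vertical axis) for each array, by group, coloured by background class, with bars at the group means. LEP-ICV spans the widest range, with LEP_ICV_1014, a low array, highest at 0.81 over all members, and each class of LEP-ICV* arrays sits apart from the other.

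After brain leptin, mRNA of many ribosomal proteins was higher. In LEP-ICV against VEH-ICV livers, 30 of the 58 members were called higher and 0 lower, where 13.9% of all genes were called higher and 12% lower. The median change of the members was 0.82, against 0.01 over all genes, with a positive value for 52 members and a negative one for 6. Without LEP_ICV_1003, 38 were called higher and 1 lower. Both subunits took part, with 16 of 34 large subunit genes (median 0.80) and 14 of 24 small subunit genes (median 0.93) called. The 3 largest called changes were those of Rps4x (2.44 ± 0.62, SE), Rplp1 (2.36 ± 0.48) and Rpl9 (2.13 ± 0.58), with adjusted p of 0.00665, 0.00124 and 0.00997. Rps4x is an X-linked small subunit protein, and Rplp1 belongs to the stalk that recruits elongation factors. With the class in the model, 20 members were called higher and 0 lower with a median of 0.75, where 7.56% of all genes were called higher. The 15 members called in both models were Rpl13a, Rpl27a, Rpl34, Rpl37a, Rpl39, Rpl41, Rpl5, Rplp0, Rplp1, Rps12, Rps19, Rps21, Rps24, Rps27 and Rps3a1.

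**Figure D2:**
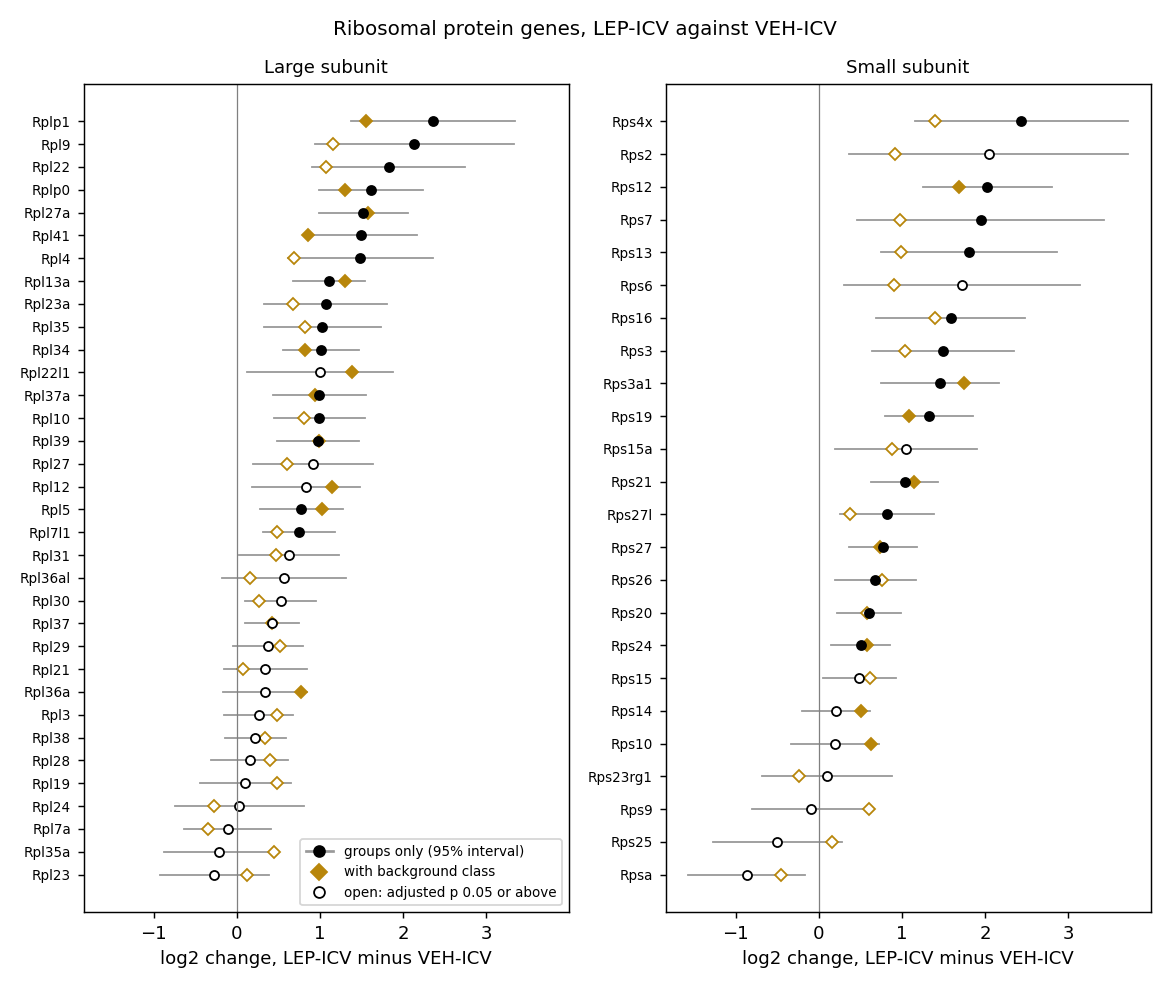
Log2 change of each of the 58 members in LEP-ICV against VEH-ICV (horizontal axis), large subunit left and small subunit right, in order of the change. Black circles with 95% intervals are from the model of groups alone and gold diamonds from the model with background class, filled where the adjusted p was under 0.05. Rplp1 and Rps4x lead without the class, and Rps3a1, Rps12 and Rpl27a have the largest values with it.

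Rpl13a, a large subunit protein that in human myeloid cells also leaves the ribosome to silence some inflammatory mRNAs, was 10.39, 11.08, 10.70 and 10.70 in LEP-ICV. It was 8.87, 9.62, 8.99 and 9.67 in LEP-ICV*, and 9.58, 9.46, 9.53 and 9.85 in VEH-ICV. All 4 LEP-ICV arrays, of either class, lay above all 8 others, and the change was 1.11 ± 0.21 (SE) against VEH-ICV (adjusted p = 0.000661) and 1.30 with the class (adjusted p = 0.000332). Rpl27a, another large subunit protein, was 10.02, 11.05, 10.51 and 10.30 in LEP-ICV, and 9.08, 8.03, 9.19 and 9.48 in VEH-ICV. LEP-ICV* had 9.27, 9.46, 9.02 and 9.04, which lay within the VEH-ICV range. Rpl27a rose by 1.52 ± 0.26 (SE; adjusted p = 0.000257), and by 1.58 with the class (adjusted p = 0.000722). The study lists Rpl13a, Rpl27a, Rpl31, Rps19 and Rps21 among the genes it tied to weight loss on these same arrays, so their direction is not independent evidence.

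Rps3a1, a small subunit protein, was 10.16, 11.49, 9.71 and 9.69 in LEP-ICV. VEH-ICV had 9.27, 8.21, 8.87 and 8.88, and LEP-ICV* had 9.05, 9.46, 9.11 and 8.77. Again no LEP-ICV array overlapped the other brain-infused mice, and LEP_ICV_1014 stood highest. The change against VEH-ICV was 1.46 ± 0.34 (SE; adjusted p = 0.00398), and 1.75 with the class (adjusted p = 0.00239). Rps21, another small subunit protein, which was chosen after its values were seen, was 13.51, 14.23, 13.35 and 13.75 in LEP-ICV and between 12.34 and 12.91 in VEH-ICV. It rose by 1.03 ± 0.20 (SE; adjusted p = 0.000655), and by 1.14 with the class (adjusted p = 0.000741). Rps12 was 12.56, 14.61, 14.47 and 13.20 in LEP-ICV, against 12.42, 11.11, 11.82 and 11.37 in VEH-ICV, and rose by 2.03 ± 0.38 (SE; adjusted p = 0.000605) and by 1.69 with the class (adjusted p = 0.00629).

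Rps19, which is mutated in some people with Diamond-Blackfan anaemia, had 1 LEP-ICV array, LEP_ICV_1003, well below the others of its group. In LEP-ICV* it had 12.55 and 12.74 on high and 12.54 and 12.63 on low arrays, with no split by class. The high LEP-ICV arrays had 14.26 and 14.18 and the low LEP-ICV arrays 12.66 and 13.93, against 12.67, 12.32, 12.28 and 12.45 in VEH-ICV. The lowest LEP-ICV array thus lay at the level of the highest VEH-ICV array, and the change was 1.33 ± 0.26 (SE; adjusted p = 0.000801), or 1.08 with the class (adjusted p = 0.0074). For Rps4x and Rpl9 the classes overlapped within LEP-ICV. Rps4x had 13.85 and 11.39 on the high and 9.97 and 12.34 on the low LEP-ICV arrays, against 9.04 to 10.04 in VEH-ICV, and with the class its change was 1.40 (adjusted p = 0.0734). Rpl9 had 14.14 and 11.93 on the high and 10.72 and 12.72 on the low LEP-ICV arrays, and with the class its change was 1.15 (adjusted p = 0.114).

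Non-overlap can be counted without a model. All 4 LEP-ICV arrays lay above all 4 VEH-ICV arrays for 14 of 58 members, where 9.91% of all genes had this pattern. They lay above all 4 LEP-ICV* arrays for 10 members, against 4.61% of all genes. For 7 members, Rpl13a, Rpl27a, Rpl5, Rps20, Rps21, Rps24 and Rps3a1, they lay above the arrays of both groups, against 3.39% of all genes. Rpl5, Rps20 and Rps24 were named for this pattern after their values were seen. Rpl5 joins 5S ribosomal RNA and Rpl11 in the particle that, when free, binds Mdm2, the ligase that degrades p53.

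**Figure D3:**
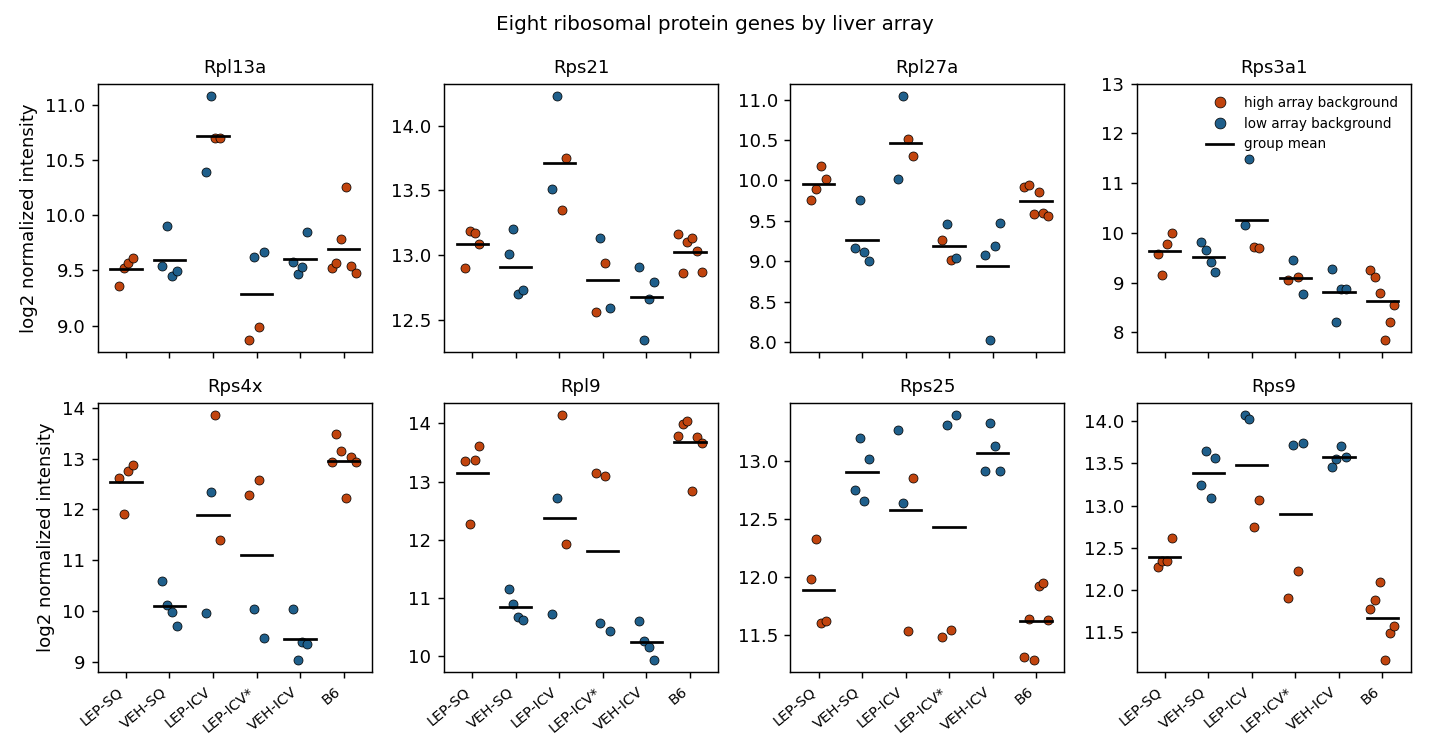
Log2 normalized intensity of 8 members for each array by group, coloured by background class, with bars at the group means. In the upper row (Rpl13a, Rps21, Rpl27a, Rps3a1) LEP-ICV arrays of both classes stand above VEH-ICV and LEP-ICV*, and in the lower row (Rps4x, Rpl9, Rps25, Rps9) the LEP-ICV* arrays split by class, as for Rps9 at 11.90 and 12.23 on high arrays and 13.72 and 13.74 on low arrays.

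The comparison of LEP-ICV with LEP-ICV* asks about mice of 1 assigned infusion that did and did not lose weight, in the same mix of classes, and it shares the 4 LEP-ICV arrays with the comparison above. Here 12 members were called higher and 0 lower, where 5.22% of all genes were called higher, with a median of 0.56 and positive values for 51 members. Rpl13a was higher by 1.43 (adjusted p = 0.000111), Rpl27a by 1.27 (adjusted p = 0.00215), Rps3a1 by 1.17 (adjusted p = 0.0338) and Rps19 by 1.14 (adjusted p = 0.0053). With the class, 20 members were called higher, where 7.47% of all genes were. LEP-ICV* against VEH-ICV gave 0 calls in either model, where 0% of all genes were called higher, although 18 members and 2050 of all genes had an unadjusted p under 0.05 without the class. With the class, 0 members had an unadjusted p under 0.05 in that comparison. Without LEP_ICVN_1016 it gave 16 calls in the model without the class, 14 higher and 2 lower. There 941 of 7953 genes were called higher and 886 lower.

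Within each class, where LEP-ICV has 2 arrays, fits took the spread from all arrays of the class. On low arrays (2 LEP-ICV, 4 VEH-ICV) 5 members were called higher and 0 lower with a median of 0.77, where 3.14% of all genes were called higher. They were Rps3a1 (2.02, adjusted p = 0.0189), Rps12 (1.90, adjusted p = 0.0496), Rpl27a (1.59, adjusted p = 0.0464), Rps21 (1.20, adjusted p = 0.032) and Rpl13a (1.13, adjusted p = 0.0247). On high arrays (2 LEP-ICV, 2 LEP-ICV*) 10 members were called higher, where 4.14% of all genes were, with Rpl13a at 1.77 (adjusted p = 0.00133) and Rps19 at 1.57 (adjusted p = 0.00564). On low arrays the same comparison (2 LEP-ICV, 2 LEP-ICV*) called 0 members by limma, where 0.126% of all genes were called higher. There 12 members had an unadjusted p under 0.05, the median was 0.64, and Rpl13a had 1.09 (adjusted p = 0.126).

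The number of calls leaned on few mice. Without LEP_ICV_1014 the calls against VEH-ICV were 20, and with the class 3, namely Rpl13a (1.19, adjusted p = 0.00588), Rpl27a (1.27, adjusted p = 0.0182) and Rps21 (0.89, adjusted p = 0.0188), while without LEP_ICV_1017 they were 19. With the class they were also 12 without VEH_ICV_1010, 36 without LEP_ICV_1003 and 32 without LEP_ICV_1019. Fitting only the 8 arrays compared gave 7 calls. Against LEP-ICV*, the 12 calls became 4, 7 and 23 without LEP_ICV_1014, LEP_ICV_1019 and LEP_ICV_1003, and 5 and 6 without LEP_ICVN_1001 and LEP_ICVN_1008. With the class, those 20 calls became 8 without LEP_ICV_1014, 9 without LEP_ICVN_1001, 12 without LEP_ICVN_1008 and 9 without LEP_ICVN_1016. From only the 8 arrays compared they were 0, and under median scaling, which moved the median of all genes by 0.12, they were 2.

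Macrophage genes were also higher in LEP-ICV as a group, and their relation to the members from mouse to mouse was not tested. Of 6 tested Kupffer cell and macrophage genes, 5 were called higher in LEP-ICV than in VEH-ICV with a median of 1.39, led by the complement gene C1qc at 3.07, and 6 were with the class. Their mean level was 9.58 to 10.63 in LEP-ICV, 8.44 to 9.32 in LEP-ICV* and 7.94 to 8.76 in VEH-ICV, without overlap between LEP-ICV and the other groups. The mean level of the members in LEP_ICV_1003, at -0.24, lay within the VEH-ICV range. Of 6 tested hepatocyte genes, 0 were called higher and 2 lower, or 3 lower with the class. Their mean level was 12.71 to 13.69 in LEP-ICV and 13.99 to 14.15 in VEH-ICV. Among 6 stellate cell, 4 endothelial and 2 neutrophil genes, 1 each was called higher, or 2, 0 and 0 with the class. Among 5 lymphocyte, 3 erythroid and 1 cholangiocyte genes, 0 were called in either model. The part of these cell types in the members' increase was not tested.

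The members differed widely in how far they moved with background class, as estimated from LEP-ICV and LEP-ICV* arrays alone. Between high and low arrays 14 members were called higher and 9 lower, where 16.4% of all genes were called higher and 18.2% lower. Rps2 (2.25), Rps4x (2.07), Rpl9 (1.97), Rps7 (1.93), Rps13 (1.64) and Rps6 (1.64), the target of S6 kinase, were the most raised on high arrays. Rps9 (-1.40), Rpl35a (-1.31) and Rps25 (-1.30) were the most lowered. Rpl37, Rpl39, Rps20 and Rps27 stood near 0, between -0.01 and 0.06. Probes for proteins of the same particle thus lay on opposite sides of the class difference.

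In LEP-SQ against VEH-SQ, which asks about leptin in the body at large, 19 members were called higher and 6 lower with a median of 0.24, where 18.9% of all genes were called higher and 20.7% lower. Rps4x was 12.61, 11.90, 12.75 and 12.88 in LEP-SQ, and 10.59, 10.12, 9.99 and 9.71 in VEH-SQ. Rps2 had 13.36, 12.56, 13.38 and 13.35 in LEP-SQ, against 11.18, 10.19, 10.89 and 10.21 in VEH-SQ. Rps9 ran the other way, at 12.27 to 12.62 in LEP-SQ and 13.10 to 13.65 in VEH-SQ, and none of these groups overlapped. The changes were 2.54 for Rps2 (adjusted p = 0.0187), 2.44 for Rps4x (adjusted p = 0.00625), 2.31 for Rpl9 (adjusted p = 0.00593), -1.02 for Rps25 (adjusted p = 0.0348), -1.0 for Rps9 (adjusted p = 0.0262) and -0.82 for Rpl19 (adjusted p = 0.0192). All 14 members called higher on high arrays were called higher in LEP-SQ, and 5 of the 9 called lower were called lower. Of the 35 members with no class call, 5 were called higher and 1 lower, with a median of 0.17.

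With the class in the model, 0 members were called in LEP-SQ against VEH-SQ in either direction, 4 had an unadjusted p under 0.05, and 0.113% of all genes were called higher and 0.176% lower. This fit takes the class difference from the brain-infused mice, since no group infused under the skin has both classes. Across the 58 members the class difference and the change in LEP-SQ correlated at r = 0.95, and at 0.825 across 7953 genes, from arrays that they do not share. This is a description across genes, which are not independent replicates and share array, probe chemistry and depth. Under scaling by the median in place of quantiles, which moved the median of all genes by 0.56, the split was 24 higher and 0 lower. The 25 calls without the class became 14 without VEH_SQ_1040, and 15 or 16 without LEP_SQ_1041, LEP_SQ_1029 or LEP_SQ_1039.

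Vehicle-infused ob/ob mice, VEH-SQ and VEH-ICV together, were compared with B6. This comparison shares the 4 VEH-SQ arrays with the one before, on the other side of the difference, and it sets the same classes against each other. Of the 58 members, 11 were called higher and 31 lower with a median of -0.65, where 35.4% of all genes were called higher and 31.8% lower. Rps2 lay between 10.19 and 11.18 in VEH-SQ and between 13.53 and 14.39 in B6. Its change was -3.93 (adjusted p = 1.13e-05), that of Rps6 -3.28 (adjusted p = 1.36e-05) and that of Rps4x -3.18 (adjusted p = 5.39e-06). Rps9 was higher in ob/ob mice by 1.81 (adjusted p = 3.98e-06), Rps25 by 1.37 (adjusted p = 0.000248) and Rpl35a by 1.30 (adjusted p = 8.03e-05). All 14 members called higher on high arrays were called lower in ob/ob mice, and 7 of the 9 called lower were called higher. With the class, 0 members were called higher and 2 lower, where 2.74% of all genes were called lower, and they were Rpl7l1 (-0.96, adjusted p = 0.00882) and Rps15 (-0.96, adjusted p = 0.0212). Under median scaling, which moved the median of all genes by -0.65, the split was 5 higher and 40 lower.

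**Figure D4:**
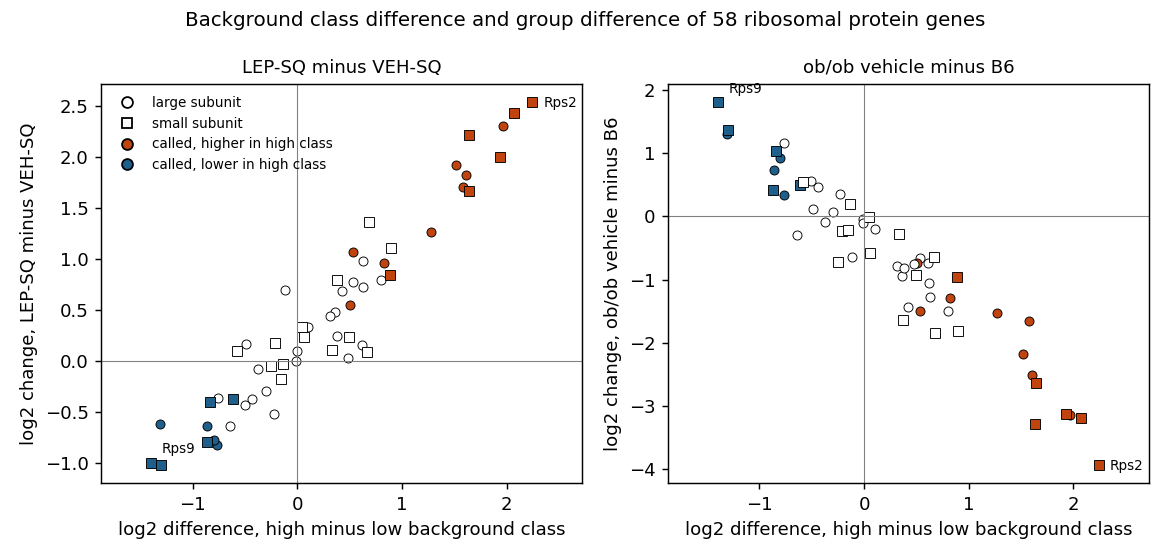
Log2 difference between high and low background class for each of the 58 members (horizontal axis, from the brain-leptin groups) against the log2 change in LEP-SQ minus VEH-SQ (left) and ob/ob vehicle minus B6 (right). Circles are large and squares small subunit genes, filled where called between classes. The points follow a line with r = 0.95 on the left and -0.956 on the right, with Rps2 at 2.25 and Rps9 at -1.40 near its ends.

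LEP-SQ and B6 lie within the high class, so this comparison of leptin-treated ob/ob mice with baseline mice sets no class against the other. Background intensity still differed within the class, at 155.3 to 167.6 on LEP-SQ and 171 to 186.1 on B6 arrays, without overlap. Across the 58 members the class difference and this change correlated at r = -0.566, and at -0.249 across 7953 genes. The members had a median change of -0.17, and 0 were called higher and 2 lower, where 2.25% of all genes were called lower. Rps15, a small subunit protein, was 10.83 to 11.07 in LEP-SQ and 11.45 to 12.21 in B6, without overlap, and its change was -0.72 (adjusted p = 0.0232). Rpl7a was not detected on any LEP-SQ array but on 5 of 6 B6 arrays, with means of 5.35 and 6.22, and was at least 1.21-fold higher in B6 (adjusted p = 0.0224). This and other bounds set the mean of the group with signal against the lowest detected signal of each array of the group without. The model with the class term gives the same changes with other errors. It called 3 members higher, where 8.45% of all genes were, and the same 2 lower, where 4.22% were. Rps3a1 was 9.57, 9.16, 9.77 and 10.01 in LEP-SQ, with 7.85, 8.67 and 9.25 as the lowest, median and highest of B6, a change of 1.0 (adjusted p = 0.027), and the groups overlapped by 1 LEP-SQ array. Rps9 (0.73, adjusted p = 0.00576) and Rpl35a (0.69, adjusted p = 0.00442) were the others, and both had LEP-SQ arrays wholly above B6. The other probe of Rps9 went the opposite way here, at -0.77. The probes used for Rps9 and Rpl35a were also the most lowered on high arrays, at -1.40 and -1.31. Fitted from high arrays alone, 4 members were called higher and 3 lower, where 674 and 344 of 7953 genes were. Besides the members called with the class term, these were Rpl22l1 (1.04, adjusted p = 0.014) and Rpl12 (-0.765, adjusted p = 0.0167). With the background intensity of each array as covariate in place of the class, 0 members were called higher and 5 lower, where 280 of 7953 genes were called lower. Of the 2 lower calls without the class term, 1 was left without B6_2021, B6_2029 or LEP_SQ_1029, and 0 without LEP_SQ_1039 or LEP_SQ_1041. Without LEP_SQ_1032, 0 members were called lower and 1 higher.

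The change by brain leptin differed from that by leptin under the skin for 1 member. Rpl13a was 9.36 to 9.62 in LEP-SQ and 9.45 to 9.91 in VEH-SQ, and the difference of the 2 changes was 1.19 ± 0.30 (SE; adjusted p = 0.0365), where 1.02% of all genes were called higher. With the class it was 1.01 (adjusted p = 0.0701). For Rps21 that difference was 0.86 (adjusted p = 0.12) and for Rps3a1 1.36 (adjusted p = 0.162), neither past the threshold.

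The ribosomal stalk is formed by Rplp0 with Rplp1 and Rplp2, and it binds the elongation factors during translation. Rplp0 was detected on 4 of 4 LEP-ICV arrays at 7.03, 8.11, 7.85 and 8.46 and on 0 of 4 VEH-ICV arrays, with a mean of 7.86 in LEP-ICV and 6.25 in VEH-ICV. It was at least 1.83-fold higher in LEP-ICV (adjusted p = 0.000653). It was also at least 1.43-fold higher in LEP-SQ than in VEH-SQ (adjusted p = 0.0162), and at least 1.6-fold higher in B6 than in ob/ob mice (adjusted p = 5.33e-05). These last 2 comparisons set 1 class against the other. With the class Rplp0 had 1.30 in LEP-ICV (adjusted p = 0.00666), 0.35 in LEP-SQ (adjusted p = 0.862) and -0.65 in ob/ob mice against B6 (adjusted p = 0.26). Rplp1 was 12.76, 14.71, 15.43 and 14.09 in LEP-ICV, against 12.69, 11.45, 11.79 and 11.64 in VEH-ICV, with no overlap, and rose by 1.55 with the class (adjusted p = 0.0105). Rpsa, a small subunit protein also known as the laminin receptor, was detected on 6 arrays, 1 of 4 in LEP-ICV and 0 of 4 in VEH-ICV, and gives no fold between these groups.

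Alternative forms did not follow their standard partners throughout, and most of these calls were lost with the class. Without the class, Rpl22 rose in LEP-ICV by 1.83 (adjusted p = 0.00511) and in LEP-SQ by 1.92 (adjusted p = 0.00416), and was lower in ob/ob mice than in B6 (-2.18, adjusted p = 9.62e-06). With the class its values were 1.07 in LEP-ICV (adjusted p = 0.0524), 0.40 in LEP-SQ (adjusted p = 0.865) and -0.67 in ob/ob mice (adjusted p = 0.332). Its paralog Rpl22l1 had values of 1.0 (adjusted p = 0.0814) in LEP-ICV, or 1.38 with the class (adjusted p = 0.0431), and -0.36 (adjusted p = 0.502) in LEP-SQ, and was at least 1.61-fold higher in ob/ob mice, detected on 3 of 8 arrays, than in B6, detected on 0 of 6 (adjusted p = 0.00329, and 0.678 with the class). LEP-SQ mice, detected on 3 of 4, had Rpl22l1 at least 1.48-fold above B6, both of the high class. The models of all arrays did not call it (adjusted p = 0.107, or 0.0636 with the class). The fit of high arrays alone called it higher (adjusted p = 0.014). Rpl36a and Rpl36al also took opposite signs, with -0.64 (adjusted p = 0.0431) and 0.96 (adjusted p = 0.0367) in LEP-SQ. With the class they had 0.22 (adjusted p = 0.86) and 0.14 (adjusted p = 0.957). Rps27 and Rps27l, which p53 induces, both rose in LEP-ICV without the class, by 0.77 (adjusted p = 0.00707) and 0.82 (adjusted p = 0.0312). With it Rps27 rose by 0.74 (adjusted p = 0.0239) and Rps27l had 0.37 (adjusted p = 0.306). Differences between partners were not tested.

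At the ends of the signal range, the probes with the highest mean in the large and the small subunit were those of Rpl23 and Rps20, and the probes with the lowest mean those of Rpl21 and Rps23rg1. Rpl21 was detected on 1 of 4 LEP-ICV and 0 of 4 VEH-ICV arrays, and Rps23rg1 on 0 of 4 in both groups. Rps20 rose by 0.60 in LEP-ICV (adjusted p = 0.0212). Few members, 0 to 2 per array, reached 90% of the highest signal of their array.

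For 9 genes more than 1 probe was tested, and these often disagreed. In LEP-SQ against VEH-SQ the probes of 5 of 9 genes had the same sign, and with the class those of 8. For LEP-ICV against VEH-ICV the counts were 5 and, with the class, 6, where the probes of Rpl38, Rpl7l1 and Rps19 still differed. For ob/ob mice against B6 they were 5 and, with the class, 4. The probe used for Rps9 had a change of -1.0 and its other probe 1.76 in LEP-SQ, and 1.81 and -2.87 in ob/ob mice against B6. These probes also stood on opposite sides of the class difference, at -1.40 and 1.40. With the class they gave 0.61 and 1.54 in LEP-ICV. The second probe of Rps19 was detected on only 4 arrays.

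The members were also split by whether a run of 8 or more C or T bases lay near an annotated start. Those without had shorter runs, such as 7 bases in Rps4x and 6 in Rps3a1. In LEP-ICV against VEH-ICV, 19 of 38 members with a run of 8 or more were called higher, with a median of 0.82, as were 8 of 12 without, with a median of 1.47. With the class these counts were 16 of 38 (median 0.79) and 2 of 12 (median 1.01). The share called was thus larger without such a run in the first model and with it in the second. The difference between these sets was not tested.

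Once group and class had been removed, members still moved together from mouse to mouse, with a median pairwise r of 0.304 over 1653 pairs, against 0.01 for pairs of all genes. The middle of the pairs ran from 0.004 to 0.616. Rps13 followed the mean of the other members most closely (r = 0.936) and Rps25 ran against it (r = -0.662). Values of 1 array share its depth and scaling, so this is a description only.

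Other genes of protein synthesis were read beside the members in LEP-ICV against VEH-ICV. Of 13 tested translation factors and similar mRNAs with a TOP tract, 5 were called higher and 0 lower with a median of 0.39, and 7 and 0 with the class. Eef1b2, an elongation factor subunit, rose by 2.15 (adjusted p = 0.000623), and by 1.74 with the class (adjusted p = 0.00672). Of 18 initiation factors, 7 were called higher and 1 lower (median 0.60), with the RNA helicase Eif4a1 higher by 1.06 (adjusted p = 0.00084) and the cap-binding protein Eif4e lower, at -0.93 (adjusted p = 0.0451). With the class the counts for initiation factors were 2 and 0. Of 23 ribosome biogenesis genes 3 were called higher and 0 lower (median 0.46), and 2 and 0 with the class, with Fbl, which methylates ribosomal RNA, higher by 1.18 (adjusted p = 0.00141). Of 7 mTOR pathway genes 1, the mTOR activator Rheb, was called higher at 1.40. For ribosome biogenesis and mTOR genes the shares called higher lay near the 13.9% of all genes (7.56% with the class). Of 70 proteins of the mitochondrial ribosome, a separate particle, 15 were called higher and 4 lower with a median of 0.13, and 4 and 2 with the class. Fau, a small subunit protein outside the symbol rule, had a value of 0.50 (adjusted p = 0.0848).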

How the data were processed

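BeadStudio 2.0 summarised the probe intensity and a detection score, and the authors deposited both without normalization, 1 array per mouse and none pooled. They also deposited log2 values after variance-stabilizing transformation and robust spline normalization with lumi (version not given in the sources used here), used as an alternative. Gene names come from the platform annotation, in which 23978 of 25697 probes have 1 symbol and 1719 none.

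Intensities went through neqc, which corrects background and sets equal quantiles (limma 3.58.1, R 4.3.3, offset 16), taking 1 minus the detection score as detection p. Probes with detection p under 0.01 on at least 4 arrays (11001) were kept, the probe with the highest mean stood for each gene (7953 genes), and a linear model of 6 groups was fitted, followed by eBayes and Benjamini-Hochberg adjustment. The study's methods used limma on weight loss in grams, with no term for array background. Weight loss is not used here, groups from the labels took its place, and the background class was added as a second model. The scripts were tested on simulated data. Precision is limited by the number of arrays, and the sources used here name no chip or batch.

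Members and lists were chosen with earlier results of these data known. Named by rule were genes the study lists, the 3 largest called increases and decreases per comparison, up to 4 calls per direction with the class, stalk proteins and Rpsa, pairs of forms, and the probes with the highest and lowest mean in each subunit. Alternatives changed the background correction, scaling, filter, probe choice, model, weights and samples.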

Additional observations from a re-analysis of the deposited data

Results flagged for a closer look

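The 29 members named by rule, out of 58, and the mean level of each subunit were looked at in every group, which gives 186 sets of 4 or 6 arrays, and 10 held an array set apart from the rest by a gap large against the range, where chance marks about 1 in 20. B6_2021 was the array for 4 of them. Its Rpl19 was 12.15, with the other B6 mice between 11.28 and 11.53, and its Rps15 was 12.21, with the others between 11.45 and 11.67. Its Rpl9 was 12.83, with the others between 13.66 and 14.04, and its Rps6 was 9.66, with the others between 11.21 and 11.94. In B6_5543, Rps12 was 13.46 (others 13.83 to 13.98). In LEP-ICV, Rpl22l1 was 8.67 in LEP_ICV_1014 (others 6.89 to 7.17) and Rpl23 was 14.79 in LEP_ICV_1017 (others 15.71 to 15.79). In LEP_ICVN_1001, of LEP-ICV*, Rps15 was 10.60 (others 11.01 to 11.07). In LEP_SQ_1032, Rps2 was 12.56 (others 13.35 to 13.38) and Rps23rg1 was 6.56 (others 5.40 to 5.56).

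The response of Rpl13a to brain leptin exceeded that to leptin under the skin by 1.19 on the log2 scale, by a test of the difference itself (adjusted p = 0.0365). With the class the difference was 1.01 and no longer called (adjusted p = 0.0701), and the comparison under the skin cannot be told apart from the class. No explanation was tested for these values.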

How the results depend on the processing

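Counts of members called moved by over 1.5 times under these alternatives. LEP-SQ against VEH-SQ (25) gave 0 with the class, with the background signal or with the number of detected probes as covariate, 0 with class and detected probes, and 42 with array weights. With weights 29 members were called higher and 13 lower, where 2586 and 3007 of 7953 genes were. LEP-ICV against VEH-ICV (30) gave 7 from only the groups compared and 16 with detected probes, where 291 and 839 of 7953 genes were called higher. LEP-ICV* against VEH-ICV (0) gave 42 with array weights, 29 higher and 13 lower, where 2714 of 7953 genes were called higher and 3107 lower. LEP-ICV against LEP-ICV* (12) gave 20 with the class or the background signal, 2 under median scaling, 0 from only the groups compared, 31 with weights and 26 with class and detected probes. Of 7953 genes, 594 were called higher with the class, 602 with the background signal and 337 under median scaling. From only the groups compared 7 were, with weights 1642, and with class and detected probes 1043. Vehicle ob/ob against B6 (42) gave 2 with the class, the background signal, or class and detected probes, and 18 with detected probes. Of 7953 genes, 407 were called higher and 218 lower with the class, and 335 and 173 with the background signal. With class and detected probes 525 and 355 were, and with detected probes 1388 and 1224. LEP-SQ against B6 (2) gave 5 with the class or background signal, 1 without background correction, under median scaling or from the authors' log2 values, 12 from only the groups compared, 17 with weights, 4 with detected probes and 9 with class and detected probes. From only the groups compared, 1048 of 7953 genes were called higher and 778 lower, and with weights 1516 and 1279. With detected probes 752 and 468 were, and with class and detected probes 969 and 625. The route difference (1) gave 0 with the class. Leaving out 1 array gave 14 to 24, 19 to 39, 0 to 16 (16 without LEP_ICVN_1016), 4 to 23, 41 to 44 and 0 to 3 in that order of comparisons, and with the class 3 to 36 for LEP-ICV against VEH-ICV and 8 to 28 against LEP-ICV*. Fits with detected probes, and leave-one-out fits with the class, were added after seeing the data. Median scaling moved the median of all genes by 0.47 in LEP-ICV, 0.31 in LEP-ICV* and 0.12 between them, and by -0.11 in LEP-SQ against B6.

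Of the single values, 1050 kept direction and call, 164 lost the call and 17 turned round. With the class, in LEP-SQ, Rps25 was 0.28, Rps9 0.40, Rps27l -0.048 and Rpl36a 0.22, and in ob/ob against B6 Rpl35a was -0.014 and Rpl36a -0.125. With the background signal, in LEP-SQ, Rps25 was 0.078, Rps9 0.106 and Rpl36a 0.08, and in ob/ob against B6 Rps25 was -0.071 and Rpl36a -0.20. With the probe of lowest mean, Rps9 was 1.76 in LEP-SQ and -2.87 in ob/ob against B6, Rpl7l1 was -0.75 in LEP-SQ, -0.21 in LEP-ICV and 0.61 in ob/ob against B6, and Rps19 was -0.34 in LEP-ICV against LEP-ICV*. The causes were not tested. No paired analysis was possible because mouse numbers are not shared between groups.

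The design limits 2 comparisons most, since LEP-SQ with VEH-SQ and ob/ob with B6 each set 1 class against the other, and in the brain-infused groups the class term rests on 8 arrays. Chips are not given in the sources used here. Dim probes (Rpl21, Rpl7a, Rps23rg1, Rpsa) were at background on most arrays and give bounds or no fold.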
